A study of Mus musculus with 15 samples.

Results

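Genes of apolipoproteins and VLDL assembly were described in the maternal liver, chosen by name from the count table. The 10 members Apob, Mttp, Apoa1, Apoa2, Apoa4, Apoa5, Apoc2, Apoc3, Apoe and Pltp were found among its 21702 genes, and all 10 were among the 12172 genes with enough counts to test. The libraries came from whole liver of female wild-type mice, C57BL/6 by the labels and C57BL/6N by the study's methods, with 15 libraries in 5 groups of 3. Every mouse had received an adeno-associated virus of serotype 8 (AAV8) in which the TBG promoter, active in hepatocytes, stood before either no gene (AAV8-null) or mouse p21 cDNA (AAV8-p21), a cell cycle inhibitor encoded by Cdkn1a. The virus was given by tail vein before mating. The AAV8-null groups were non-pregnant (NP), 8 days post-coitum (8 dpc) and 16 dpc, and the AAV8-p21 groups were 8 dpc and 16 dpc. Therefore no group was free of virus, and there was no non-pregnant AAV8-p21 group. The study's methods give an age range of adult females for its mice as a whole, and the age in each of these groups, the hour of collection and the feeding state at collection are not given in the sources used here.

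The liver secretes triglyceride in very-low-density lipoprotein (VLDL). Microsomal triglyceride transfer protein, encoded by Mttp, loads lipid onto apolipoprotein B, encoded by Apob, in the endoplasmic reticulum, and the particle leaves the cell carrying smaller, exchangeable apolipoproteins. Among these, the product of Apoc2 is the cofactor of lipoprotein lipase, those of Apoc3 and Apoa5 restrain and favour lipolysis, that of Apoe is a ligand for receptor uptake, those of Apoa1 and Apoa2 are the main proteins of high-density lipoprotein (HDL), and Pltp encodes a plasma phospholipid transfer protein. Apoa4 is known for intestinal expression and for induction in liver with lipid load and fasting.

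Of the members, 6 lie in 2 gene clusters. Apoa1, Apoc3, Apoa4 and Apoa5 are neighbours within 43.3 kb at chr9:46228580-46271919 (GRCm38), and Apoe and Apoc2 stand at the ends of a 27.6 kb stretch, chr7:19671579-19699188, that also holds Apoc1 and Apoc4. Upstream sequence is shown for the pair of neighbours that went different ways (Apoc2 and Apoe) and for 3 genes of the chromosome 9 cluster, taken from RefSeq windows of 250 bases before and 50 after each start (GRCm38.p6), read on the strand of the gene and with annotated protein-coding exon bases left off. Capitals mark a motif match: CAAAGTNCA, of the kind that the hepatocyte factor HNF4A binds, in Apoa4, and TATAAA in Apoa5.
Apoc2, chr7:19677942-19678082, minus strand: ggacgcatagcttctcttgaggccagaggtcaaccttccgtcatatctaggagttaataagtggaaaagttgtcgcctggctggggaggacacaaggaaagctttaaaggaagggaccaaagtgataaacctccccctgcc
Apoe, chr7:19699189-19699438, minus strand: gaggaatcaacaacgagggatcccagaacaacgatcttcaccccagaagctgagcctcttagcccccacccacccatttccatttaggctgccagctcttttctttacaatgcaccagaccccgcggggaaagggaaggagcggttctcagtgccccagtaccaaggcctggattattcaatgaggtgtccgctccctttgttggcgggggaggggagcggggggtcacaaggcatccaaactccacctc
Apoa1, chr9:46228380-46228579, plus strand: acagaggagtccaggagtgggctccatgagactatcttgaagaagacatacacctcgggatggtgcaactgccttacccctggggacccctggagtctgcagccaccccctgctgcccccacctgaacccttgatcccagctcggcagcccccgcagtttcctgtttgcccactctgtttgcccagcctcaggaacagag
Apoa4, chr9:46240594-46240695, plus strand: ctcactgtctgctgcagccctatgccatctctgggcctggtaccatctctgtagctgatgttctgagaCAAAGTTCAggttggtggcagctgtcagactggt
Apoa5, chr9:46268358-46268607, plus strand: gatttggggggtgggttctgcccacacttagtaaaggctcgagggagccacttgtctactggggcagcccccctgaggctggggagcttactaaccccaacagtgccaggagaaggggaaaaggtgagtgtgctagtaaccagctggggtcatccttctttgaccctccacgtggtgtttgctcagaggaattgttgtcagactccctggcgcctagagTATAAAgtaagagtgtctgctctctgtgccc
RefSeq windows were matched for 9 of the 10 members, 13 windows in all. Searched on both strands, the HNF4A-type letters were in 1 of these windows, beside 1.41% of all 32851 windows of that length. TATAAA was in 6 of them, from 5 members, beside 13.6% of all windows, and TGACGT, the core of a cyclic AMP response element, was in 1, that of Mttp, beside 7.51%. The Apoc2 and Apoa1 windows held none of the 3 motifs.

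Total counts ran from 12280709 to 17615185 per library. The targeted gene Cdkn1a was above every AAV8-null library in every AAV8-p21 library, at 347 to 1664 CPM against 3.29 to 127 CPM, where CPM is the count of a gene scaled to a library total common to all samples. Alb, the albumin gene, took 10.4 ± 0.58% of all counts (SD, n = 3) in AAV8-null NP and 26.1 ± 2.30% in AAV8-null 16 dpc, so the CPM used here are scaled by TMM factors (0.682 to 1.25), which set the bulk of genes level between libraries. Summed CPM of the hepatocyte markers was 101960 to 120860 in NP and 329096 to 448478 in AAV8-null 16 dpc, most of it Alb, and without Alb it was 23710 to 25984 and 40008 to 44550. Of the 9 hepatocyte markers tested, Alb, Fgb and Ahsg were called higher at AAV8-null 16 dpc against NP and Ttr lower (log2 fold change -1.41, adjusted p = 0.0214). Over all genes tested, 3.71% were called higher and 2.82% lower in that comparison. Of 8 enterocyte markers, 6, among them the defining Vil1, Cdx2 and Sis, had 3 or fewer counts in every NP and every 16 dpc library. The other 2, Fabp2 and Lgals4, had enough counts to test, and neither was called at AAV8-null 16 dpc against NP. The list summed to 75.7 to 97.0 CPM in NP, 118 to 151 CPM in AAV8-null 16 dpc and 92.3 to 174 CPM in AAV8-p21 16 dpc. In whole liver, fewer cells of a type and less RNA per cell cannot be told apart. In 2 libraries, AAV8-null NP replicate 1 and AAV8-p21 8 dpc replicate 3, long transcripts were lower against short ones than in the other libraries, with a slope of log2 deviation on log2 transcript length of -0.23 and -0.21 against -0.10 to 0.14. Values without both libraries are given beside the length slope below.

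The first comparison asks how the members differ between the non-pregnant and the late pregnant liver. Apoc2 and Apoa1 were higher at 16 dpc, and no member was lower. The call was a Benjamini-Hochberg adjusted p under 0.05 in the quasi-likelihood test of edgeR over all genes tested. These 2 of 10 members stand beside 3.71% of all genes tested that were called higher and 6.52% called in either direction. In 6 of 10 members every 16 dpc library lay above every NP library, beside 12.1% of all genes. The median log2 fold change of the 10 members was 0.60, beside -0.03 over all genes tested.

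Apoc2 stood at 176, 183 and 152 CPM in the NP libraries and at 972, 871 and 748 CPM in the AAV8-null 16 dpc libraries. Every 16 dpc library was thus far above every NP library. The fold change was 5.07 (95% interval 3.63 to 7.07), a log2 fold change of 2.34 ± 0.22 (SE, adjusted p = 3.24e-05). At 8 dpc the libraries stood at 133, 123 and 190 CPM, which overlaps the NP range. The AAV8-null 16 dpc libraries were above those of 8 dpc by 2.54 ± 0.23 on the log2 scale (adjusted p = 1.90e-05). In Apoc2, 646 exon bases are shared with the same-strand gene Gm44805, a protein-coding model of the annotation used here that the count table does not list.

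Apoa1, which encodes the chief HDL protein, followed the same order. Its levels were 4974, 5234 and 4346 CPM in NP, 2540, 1665 and 4681 CPM at 8 dpc, and 13980, 16806 and 15683 CPM at 16 dpc in the AAV8-null libraries. The 3 libraries of 16 dpc lay above all others, while 8 dpc replicate 3 lay within the NP range and the other 8 dpc libraries below it. From NP to 16 dpc the fold change was 3.19 (95% interval 1.93 to 5.29), a log2 fold change of 1.67 ± 0.34 (SE, adjusted p = 0.00974). Without NP replicate 3 it was 1.60 with an adjusted p of 0.0505. Against 8 dpc the rise was 2.39 ± 0.35 on the log2 scale (adjusted p = 0.00119).

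The members that build the VLDL particle were higher in every 16 dpc library than in every NP library, without passing the test. Mttp stood at 237, 330 and 337 CPM in NP and at 513, 757 and 509 CPM at 16 dpc, a log2 fold change of 0.98 ± 0.29 with an adjusted p of 0.0580. Apob stood at 3155, 6306 and 6566 CPM in NP and at 6957, 10391 and 7806 CPM at 16 dpc (log2 fold change 0.65 ± 0.32, adjusted p = 0.268). The lowest NP library of both genes was replicate 1, which has the low length slope. The ratio of Apob to Mttp counts within a library was 13.3 to 19.5 in NP and 13.6 to 15.3 at 16 dpc, and these ranges overlap.

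Among the remaining exchangeable apolipoproteins the groups separated less. Apoa5 was at 1441, 1553 and 1633 CPM in NP and at 1952, 2721 and 2122 CPM at 16 dpc, with no overlap but an adjusted p of 0.365 (log2 fold change 0.55 ± 0.33). Apoa2 and Apoc3 overlapped between the groups, with log2 fold changes of 0.52 ± 0.31 (adjusted p = 0.362) and 0.36 ± 0.33 (adjusted p = 0.576). Apoe, the most counted member in NP, differed by less than its spread, with 17977, 14462 and 13726 CPM in NP against 17798, 16932 and 13053 CPM at 16 dpc and a fold change of 1.04 (95% interval 0.74 to 1.44, adjusted p = 0.933). Pltp was low throughout, at 26.0 to 86.9 CPM over the 15 libraries, and its log2 fold change of -0.08 ± 0.44 did not pass the test.

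**Figure D1:**
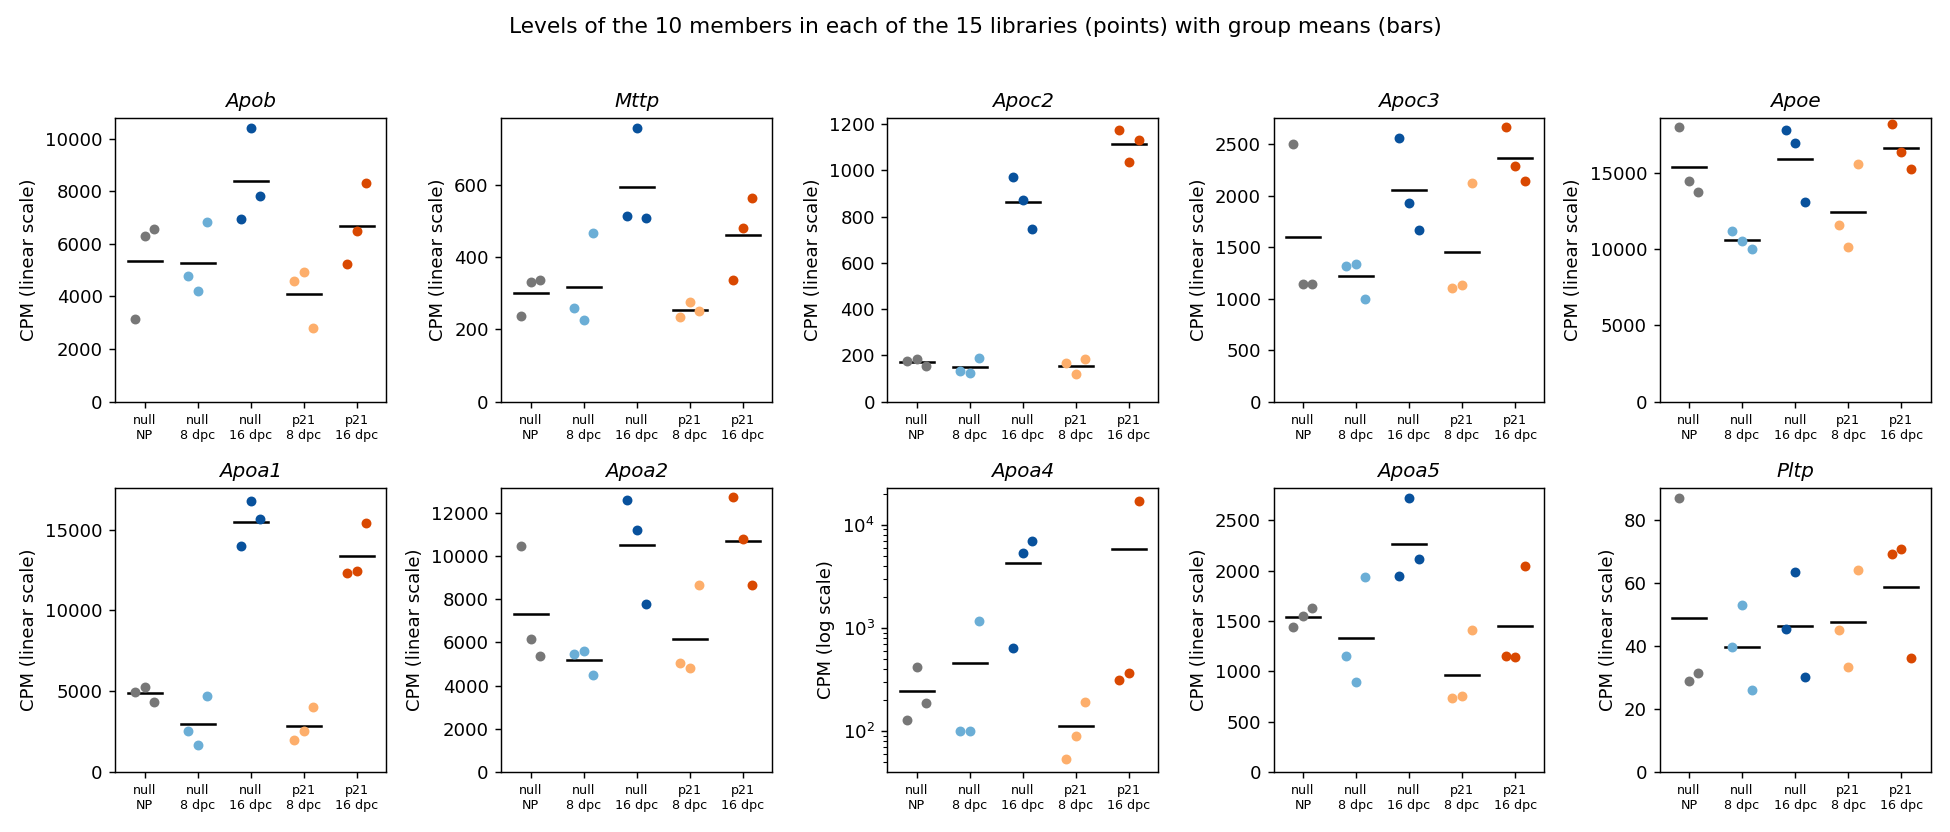
TMM-scaled CPM of each of the 10 members, on a linear scale from 0 except for Apoa4, which is on a log scale; each point is 1 library, 3 per group in the order of the replicates, and bars are group means. Apoc2 and Apoa1 lie above all other groups in both 16 dpc groups, Apoe at 16 dpc lies within or near the NP range, and Apoa4 ranges from 314 to 16911 CPM within the AAV8-p21 16 dpc group.

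Apoa4 had the largest difference and the widest spread. The AAV8-null libraries gave 128, 420 and 186 CPM in NP, 99.9, 101 and 1162 CPM for 8 dpc, then 640, 5370 and 6890 CPM for 16 dpc. Every 16 dpc library was above every NP library, but 16 dpc replicate 1 was below 8 dpc replicate 3. The log2 fold change from NP to 16 dpc was 4.13 ± 1.48 with an adjusted p of 0.119, and its 95% interval ran from 0.97 to 7.30. The AAV8-p21 libraries gave 53.8, 90.4 and 193 CPM of Apoa4 for 8 dpc. For 16 dpc they gave 314, 368 and 16911 CPM, a 53.9-fold range within that last group.

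How much of the rise of the members remains depends on what is held level. As a share of all counts the 10 members together made up 4.35 ± 0.41% in NP, 3.32 ± 0.41% at 8 dpc and 4.45 ± 0.27% at 16 dpc (AAV8-null, SD, n = 3), so the NP and 16 dpc shares differed by less than their spread. With TMM scaling their summed level was 36816 ± 3946 CPM in NP and 60447 ± 5769 CPM at 16 dpc. Scaling by library totals moved the median log2 fold change of all genes by -0.68 from NP to 16 dpc. On that scale Apoc2 (1.65, adjusted p = 0.000202) and Apoa1 (0.99, adjusted p = 0.0214) were still called higher, Apoe was called lower (-0.64, adjusted p = 0.0118), and Apob (-0.05), Apoa2 (-0.17), Apoa5 (-0.13) and Apoc3 (-0.31) changed sign without a call.

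Within a library, ratios of counts between genes do not depend on that scaling. The ratio of Apoc2 to Apoe was 0.00977 to 0.0127 in NP, 0.0117 to 0.0190 at 8 dpc and 0.0515 to 0.0573 at 16 dpc in AAV8-null libraries, a log2 difference of 2.29 between 16 dpc and NP. Apoc2 also moved against Apoc4 (2.51) and Apoc1 (2.94), which lie between it and Apoe. Per kilobase of transcript, Apoc2 was at 234 ± 22.4 CPM and Apoc4 at 1463 ± 333 CPM in NP, and at 16 dpc they were at 1188 ± 155 and 1297 ± 270 CPM. The neighbour Apoc4 had a log2 fold change of -0.17 ± 0.25 (adjusted p = 0.745) and Apoc1 one of -0.66 ± 0.36 (adjusted p = 0.312).

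In the chromosome 9 cluster, Apoa1 moved against its neighbours Apoc3 and Apoa5. The ratio of Apoa1 to Apoc3 was 1.99 to 4.56 in NP and 5.45 to 9.38 at 16 dpc (log2 difference 1.23), and that of Apoa1 to Apoa5 was 2.66 to 3.45 in NP and 6.18 to 7.39 at 16 dpc (log2 difference 1.13). The 8 dpc libraries had an Apoa1 to Apoa5 ratio of 1.86 to 2.41, below both. In each of these ratios the groups did not overlap between NP and 16 dpc, and the exact two-sided permutation test gave p = 0.1, the smallest that 3 libraries against 3 allow. They belong to 8 ratios compared in 7 ways, 56 tests whose lowest Benjamini-Hochberg adjusted p was 0.175. All but the ratio of Apob to Mttp have Apoc2 or Apoa1, the members called at 16 dpc, as first gene. Their separation between NP and 16 dpc is thus not independent of those calls.

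**Figure D2:**
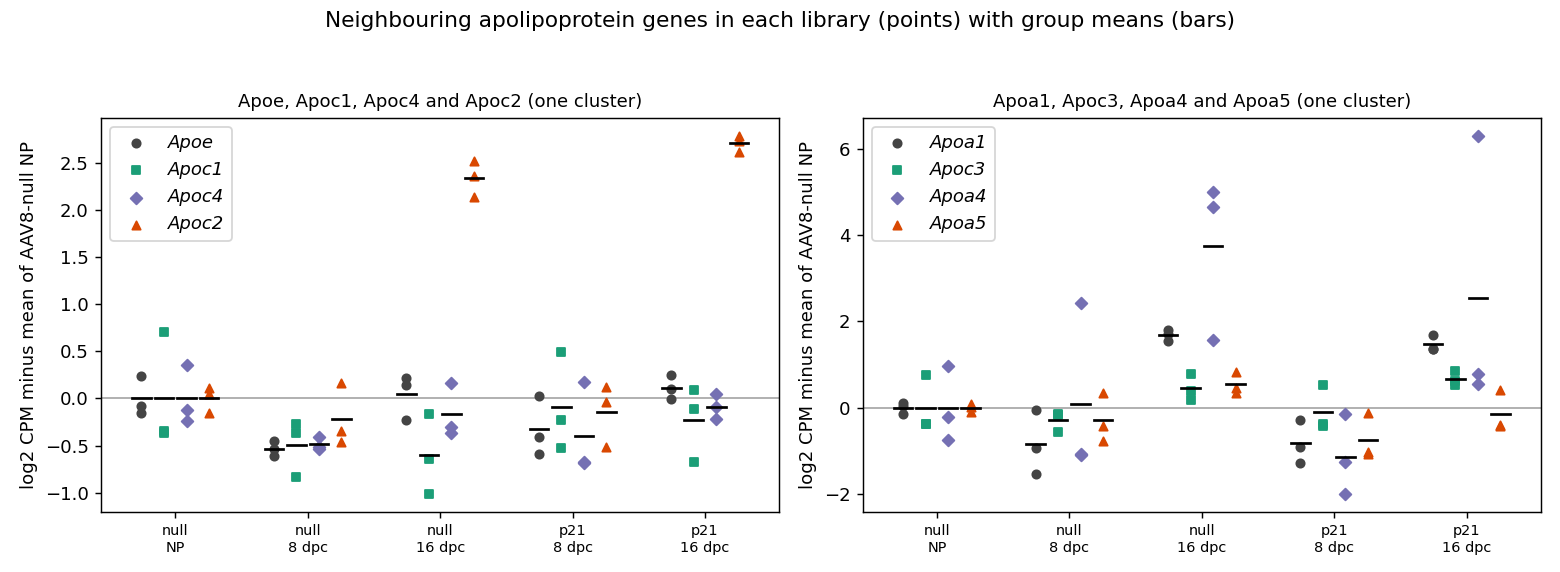
Log2 CPM of 4 neighbouring genes on chromosome 7 (left) and 4 on chromosome 9 (right), each minus its mean in AAV8-null NP; points are libraries and bars are group means. Apoc2 stands about 2 to 3 log2 units above its NP mean in both 16 dpc groups while Apoe, Apoc1 and Apoc4 stay within about 1 unit of theirs, and on the right Apoa1 is above its NP mean in each 16 dpc library while Apoa4 scatters.

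At mid pregnancy no member was called against NP. The same holds for all genes: 0% of genes were called by edgeR at 8 dpc against NP, with 6.60% at an unadjusted p under 0.05. DESeq2 called 70 genes and limma voom 1850. Of the members, 8 of 10 had a negative log2 fold change and 2, Mttp (0.07) and Apoa4 (0.89), a positive one, the median was -0.26, beside -0.01 over all genes, and the lowest adjusted p was 0.616. With 1 library left out Apoa4 ran from -1.28 to 1.54 and Mttp from -0.32 to 0.27, and Apob, Apoa5, Apoc3 and Pltp changed sign too. In 9 of 10 members the libraries of the groups overlapped. Apoe was at 11179, 10517 and 10018 CPM at 8 dpc, below all NP libraries, beside 5.52% of all genes with all 3 libraries lower. Its log2 fold change was -0.54 ± 0.23 (unadjusted p = 0.0303, adjusted p = 0.616). Apoa1 had -0.71 ± 0.33 (adjusted p = 0.760) and was called lower by limma voom alone (-1.10, adjusted p = 0.00569).

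From 8 dpc to 16 dpc all 10 members had a positive log2 fold change in AAV8-null liver, with a median of 0.84 beside 0.00 over all genes. Apoc2 and Apoa1 were called, beside 3.16% of all genes called higher. In 8 of 10 members every 16 dpc library was above every 8 dpc library, beside 12.5% of all genes, and the exceptions were Apoa4 and Pltp. Scaled by library totals, which moved the median of all genes by -0.71, Apob (-0.05), Apoe (-0.13) and Pltp (-0.51) were negative, Apoa5 (0.05) and Apoc3 (0.04) were near 0, and Apoc2 (1.82) and Apoa1 (1.67) were still called. Apoa2 (1.02 ± 0.31, adjusted p = 0.0647), Mttp (0.91 ± 0.29, adjusted p = 0.0708) and Apoe (0.59 ± 0.23, adjusted p = 0.131) did not pass the test. Without AAV8-null 8 dpc replicate 3, the highest of its group for Apob, Mttp, Apoa1, Apoa4, Apoa5 and Apoc2, 4 members were called, Mttp and Apoa5 being added, and the calls over all genes went from 6.87% to 10.3%. This comparison and the one with NP share the AAV8-null 16 dpc libraries, so the 2 sets of values are not independent.

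The comparison of AAV8-p21 with AAV8-null asks whether p21 expression in hepatocytes, begun before mating, goes with a difference in these genes. At 16 dpc no member was called, beside 0.0739% of all genes. No member reached an unadjusted p under 0.05 in edgeR, beside 9.77% of all genes. None was called by DESeq2 or limma voom, but the shares of all genes those tests called are not given here. Their lack of calls is thus not set against a background. The libraries of Apoc2 did not overlap: 972, 871 and 748 CPM in AAV8-null and 1172, 1038 and 1129 CPM in AAV8-p21, beside 6.65% of genes with all libraries higher. The fold was 1.29 with a 95% interval from 0.94 to 1.77 (adjusted p = 0.597). Apoa5 was at 1155, 1143 and 2049 CPM in AAV8-p21, with 2 libraries below the AAV8-null range and 1 within it (fold 0.64, interval 0.39 to 1.05, adjusted p = 0.553).

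The intervals say how large a difference these libraries could have hidden. For Apoe the fold of AAV8-p21 over AAV8-null at 16 dpc was 1.04 (0.75 to 1.45), for Apoa1 0.86 (0.53 to 1.41), for Apob 0.80 (0.49 to 1.29) and for Mttp 0.78 (0.51 to 1.18). For Apoa4 it was 1.36 with an interval of 0.20 to 9.41, so a difference of several-fold in either direction lies within it. The AAV8-p21 libraries at 314 and 368 CPM lay below every AAV8-null 16 dpc library, and the one at 16911 CPM above them all. With 1 library left out the log2 fold change of Apoa4 ran from -3.66 to 1.01, so its sign depended on the libraries included. The fasting list described below had a median log2 fold change of -1.32 over 15 genes, beside -0.0002 over all genes. None of the list was called, beside 0.0739% of all genes. At 8 dpc the list median between the viruses was -0.70, beside -0.002 over all genes.

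At 8 dpc no member was called between AAV8-p21 and AAV8-null either, beside 0.0246% of all genes. No member was at an unadjusted p under 0.05 in edgeR, beside 5.18% of all genes. None by DESeq2 or limma voom passed the call, again without the shares of all genes those tests called. In no member did the libraries of the groups stand apart, beside 5.52% of all genes with all AAV8-p21 libraries higher and 4.49% with all lower. Apoc2 was at 165, 118 and 185 CPM in AAV8-p21 (fold 1.05, interval 0.76 to 1.44) and Apoa1 at 1999, 2549 and 3987 CPM (fold 0.96, interval 0.59 to 1.57). The test of whether the effect of p21 differed between 8 and 16 dpc called no member and no gene, with 3.09% of genes at an unadjusted p under 0.05 and no member among them. The ratio of Apoa1 to Apoa5 separated the viruses at both stages, with 2.73 to 3.39 under p21 against 1.86 to 2.41 at 8 dpc, and 7.51 to 10.9 under p21 against 6.18 to 7.39 at 16 dpc. The log2 difference was 0.47 at each stage, with an exact permutation p of 0.1 (adjusted p = 0.175 over the 56 tests), the smallest possible. At 16 dpc the ratio of Apoc2 to Apoe separated the viruses as well. It was 0.0634 to 0.0740 under p21 against 0.0515 to 0.0573, with the same p and adjusted p, and the viruses overlapped in it at 8 dpc.

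**Figure D3:**
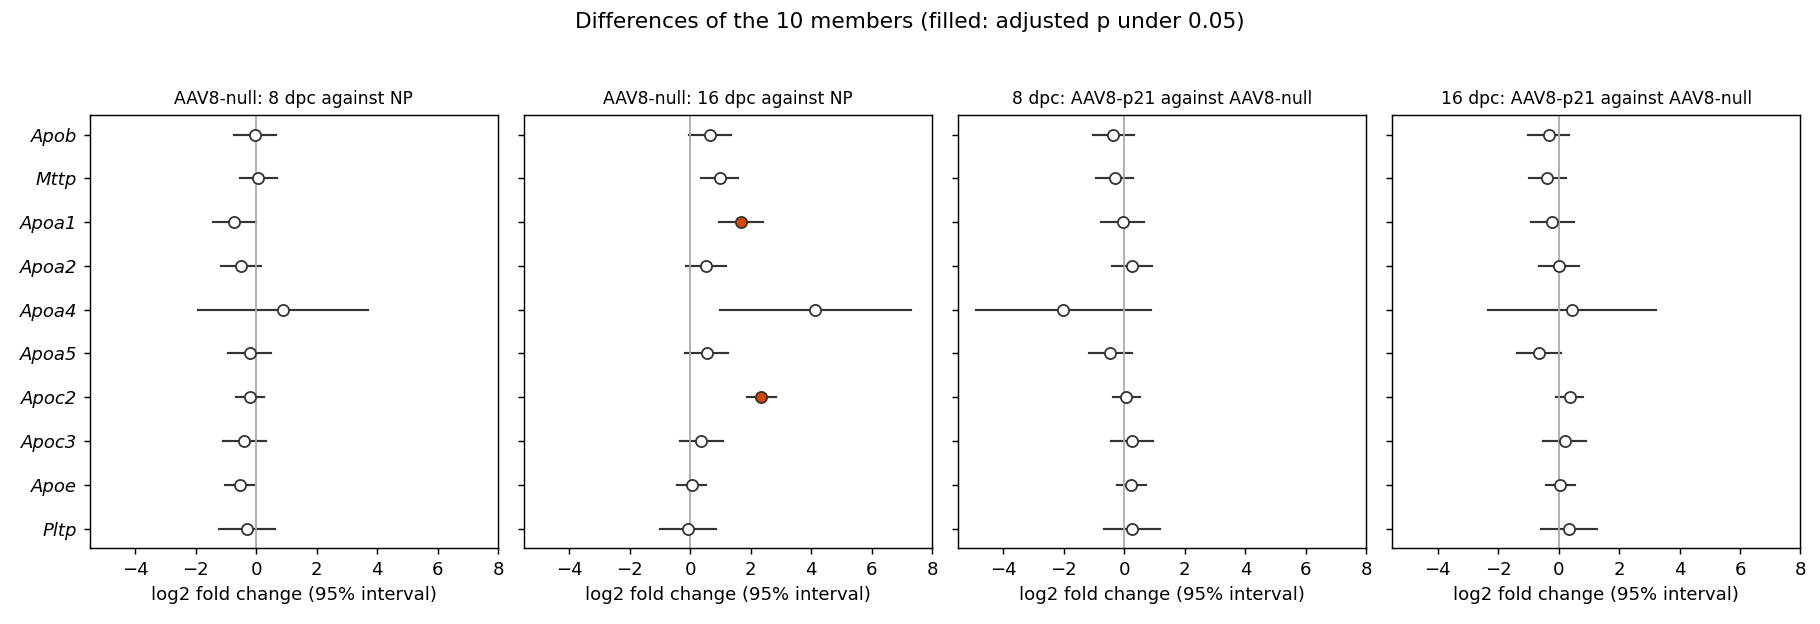
Log2 fold changes of the 10 members with 95% intervals in 4 comparisons; filled points have an adjusted p under 0.05. Filled points are Apoa1 and Apoc2 at 16 dpc against NP, and the intervals of AAV8-p21 against AAV8-null include 0 for each member at both stages.

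The rise of Apoc2 and Apoa1 was seen in the AAV8-p21 mice too. From 8 to 16 dpc Apoc2 rose by 2.83 ± 0.23 (adjusted p = 9.55e-06) and Apoa1 by 2.23 ± 0.35 (adjusted p = 0.00253) on the log2 scale, the members called beside 2.09% of all genes called higher. In 6 of 10 members every 16 dpc library was above every 8 dpc library, beside 11.5% of all genes. Against AAV8-null NP, with which pregnancy and p21 both differ, Apoc2 was higher by 2.71 ± 0.23 (adjusted p = 1.10e-05) and Apoa1 by 1.46 ± 0.34 (adjusted p = 0.0267), beside 2.65% of all genes. That call of Apoa1 was lost whichever of the 6 libraries was left out, with log2 fold changes of 1.35 to 1.52 and adjusted p from 0.0577 to 0.112.

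By group means, Apoc2 ranked AAV8-p21 16 dpc, AAV8-null 16 dpc, NP, AAV8-p21 8 dpc and AAV8-null 8 dpc, and the last 3 overlapped. Apoa1 ranked AAV8-null 16 dpc, AAV8-p21 16 dpc, NP, AAV8-null 8 dpc and AAV8-p21 8 dpc, with overlap inside the 16 dpc pair, between NP and AAV8-null 8 dpc, and between the 8 dpc groups. Per kilobase of transcript the order of the members in NP was Apoa2 (14152 ± 5337 CPM), Apoe (10929 ± 1614), Apoa1 (4687 ± 441), Apoc3 (3034 ± 1492), Apoa5 (613 ± 38.3), Apob (383 ± 136), Apoc2 (234 ± 22.4), Apoa4 (135 ± 85.4), Mttp (76.0 ± 14.2) and Pltp (22.0 ± 14.8). At AAV8-null 16 dpc Apoa1 reached 14966 ± 1375 CPM per kilobase and passed Apoe at 11312 ± 1795, and Apoc2 at 1188 ± 155 passed Apoa5 at 901 ± 160 and Apob at 602 ± 128. By its mean, Apoa4 moved furthest in this order, to 2369 ± 1796 CPM per kilobase, above Apoc2, Apoa5 and Apob, with a spread nearly as large as the mean.

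The genes whose log2 CPM was most like that of Apoc2 over the 15 libraries were Gpx3 (Pearson r = 0.991), Rogdi (0.988) and Dnajc12 (0.986). For Apoa1 they were Galk1 (0.978), Peg3 (0.957) and Rogdi (0.957). Apob was most like Pdzd8 (0.981), Mttp like Rffl (0.960), Apoa2 and Apoc3 like Esd (0.950 and 0.953), Apoa4 like Eif6 (0.965), Apoa5 like Kcmf1 (0.953), Apoe like Cyp2d10 (0.929) and Pltp like Rex1bd (0.878). These libraries share groups, so each r holds the difference between stages as well as the spread among mice.

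Among mice of the same group several members varied with the length slope. After the group means were taken out, the log2 CPM of Apob (13934 bases) was higher in libraries with a higher length slope (r = 0.97 over 15 libraries), and that of Apoc3 (526 bases) and Apoa2 (518 bases) was lower in them (r = -0.95 and -0.86). Mttp (3963 bases, r = 0.71) went the way of Apob, and Apoe (1408 bases, -0.74) and Pltp (2226 bases, -0.73) that of Apoc3, while Apoa4 (1815 bases) had 0.42 and Apoa5 (2515 bases) 0.17. Apob and Apoc3 were opposed within groups (r = -0.90), and Apoa2 went with Apoe (0.95) and Apoc3 (0.95). Apoc2 (-0.10) and Apoa1 (0.08), whose transcripts of 727 and 1035 bases are also short, had values of r near 0. The longest members, Apob and Mttp, thus had the highest r and the shortest, Apoa2 and Apoc3, the lowest. The members between them did not follow the order of transcript length throughout. Without the 2 libraries of lowest slope, over 13 libraries, r with the slope was 0.93 for Apob, 0.88 for Mttp, 0.82 for Apoa5, 0.76 for Apoa4, 0.72 for Apoa1, 0.31 for Apoc2, -0.37 for Pltp, -0.40 for Apoe, -0.61 for Apoa2 and -0.86 for Apoc3. Values of r thus rested on which libraries were included, least so for Apob and Apoc3. Without both libraries those of Apoa1, Apoa5 and Apoa4 rose, those of Apoe and Pltp were weaker and that of Apoc2 changed sign. Between Apob and Apoc3 r was then -0.72.

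With the length slope added to the model as a covariate, an alternative chosen after seeing the data, 6 members were called higher at 16 dpc against NP. These were Apob (0.59 ± 0.16, adjusted p = 0.0281), Mttp (0.91 ± 0.22, adjusted p = 0.0172), Apoa2 (0.67 ± 0.20, adjusted p = 0.0471) and Apoc3 (0.57 ± 0.15, adjusted p = 0.0323), beside Apoa1 and Apoc2. The calls in all genes rose as well, from 794 to 1408 (11.6% of all genes). Without the 2 libraries of lowest slope, 3 members were called, and the share of all genes called in that fit is not given here. These members were Apoa1 (1.69, adjusted p = 0.0192), Apoc2 (2.36, adjusted p = 0.000423) and Apoc3 (0.84 ± 0.23, adjusted p = 0.0497). In the same fit Apob had 0.38 ± 0.28 (adjusted p = 0.460) and Mttp 0.83 ± 0.32 (adjusted p = 0.153). Of the others, Apoa2 had 0.87, Pltp 0.62, Apoa5 0.50, Apoe 0.17 and Apoa4 3.81, none of them called. At 8 dpc against NP, Pltp had 0.41, Apoc3 0.10 and Mttp -0.07 without these libraries, each of a sign opposite to that with all libraries, and no member was called. For AAV8-p21 against AAV8-null at 8 dpc, Apoa5 then had -0.83 ± 0.34 (adjusted p = 0.656) and Apoa1 -0.37. There Apoa2 (-0.07), Apoc2 (-0.06), Apoc3 (-0.12) and Pltp (-0.01) were of the opposite sign to the values with all libraries, and no member was called. What lies behind the slope was not tested.

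The members were also set against the fasting list, 15 genes that PPAR-alpha and fasting are known to induce, none of them a member. Its mean log2 CPM within groups went with Apoa5 (r = 0.94), Apoa1 (0.87), Mttp (0.83) and Apoa4 (0.81), while r was 0.37 with Apob, 0.05 with Apoe and -0.08 with Apoc3, each over 15 libraries. Without the 2 libraries of lowest slope r was 0.93 with Apoa5, 0.84 with Apoa1, 0.96 with Mttp, 0.83 with Apoa4, 0.96 with Apob, -0.35 with Apoe and -0.67 with Apoc3, so the members' values of r with the list and with the slope lay closer to each other in those 13 libraries. The AAV8-p21 16 dpc library at 16911 CPM of Apoa4, had a list mean of 9.02 on the log2 scale, against 7.41 and 8.18 in the other libraries of that group. AAV8-null 8 dpc replicate 3, at 1162 CPM of Apoa4, had 8.85 against 7.73 and 7.19. The list's mean was 8.39 to 8.70 in NP and 9.32 to 10.01 at AAV8-null 16 dpc. There Pdk4 (log2 fold change 3.78) and Plin2 (2.55) were called higher of the list's 15 genes, beside 3.71% of all genes.

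Clock genes also differed between mice of one group. The difference of the mean log2 CPM of 2 sets of clock genes of opposite phase ran from -4.05 to 0.39 in NP, from -1.24 to 1.82 at AAV8-null 16 dpc and from -4.45 to -2.58 at AAV8-p21 16 dpc. The AAV8-null NP and 16 dpc ranges overlap through NP replicate 1 alone, a library of low length slope, at 0.39. NP replicates 2 and 3, at -3.97 and -4.05, lay below every AAV8-null 16 dpc library. The ranges of the 16 dpc groups do not overlap. The part of feeding and of the hour of collection in the values of Apoa4, Apoa5, Apoa1 and Mttp was not tested.

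**Figure D4:**
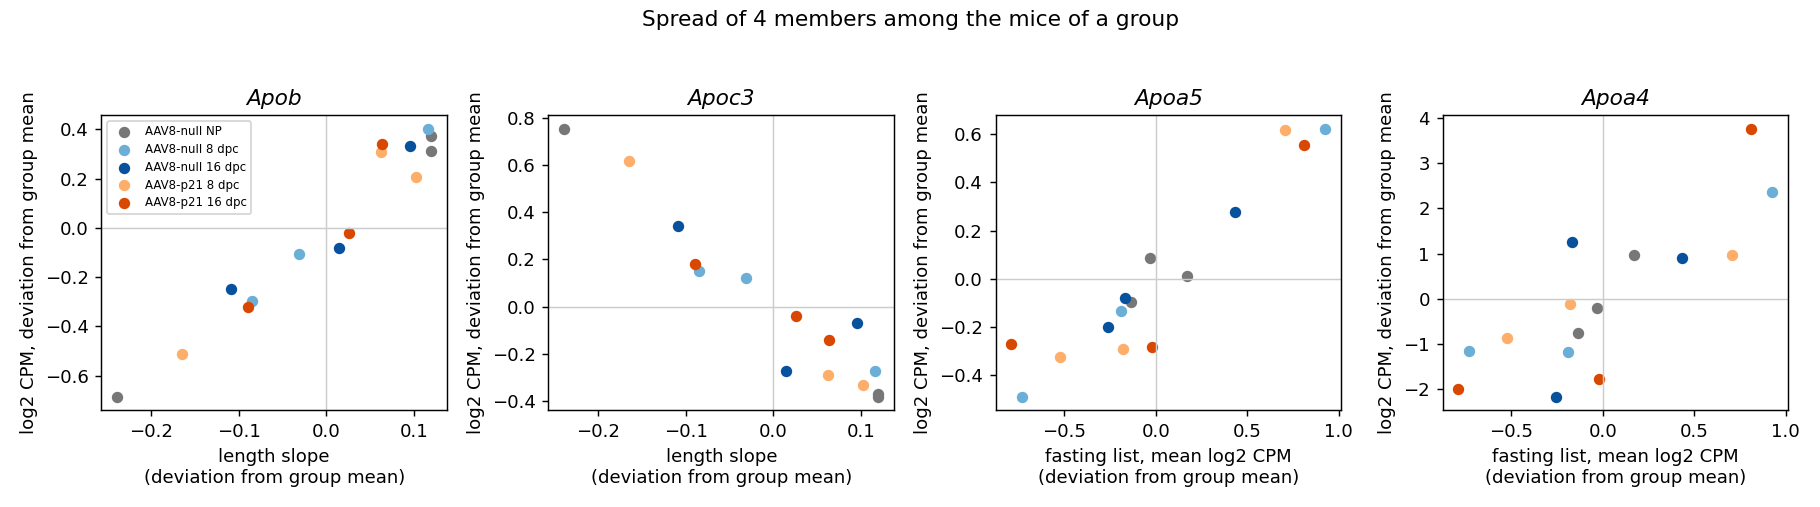
Deviation of log2 CPM from the group mean in each of the 15 libraries, for Apob and Apoc3 against the length slope of the library and for Apoa5 and Apoa4 against the mean log2 CPM of the fasting list, both also as deviations from the group mean. Apob is higher and Apoc3 lower at higher slopes, and Apoa5 and Apoa4 are higher where the fasting list is.

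Genes around the members were read from lists of the pathway. Of 25 genes of VLDL assembly and export from the endoplasmic reticulum, all were tested and none was called at AAV8-null 16 dpc against NP (list median 0.20, all genes -0.03). Among all genes tested, 6.52% were called there. P4hb, the partner subunit of the Mttp product, was at 1631, 1146 and 1093 CPM in NP and at 2058, 2180 and 2067 CPM at AAV8-null 16 dpc, and was called in AAV8-p21 16 dpc against NP (0.93 ± 0.23, adjusted p = 0.0333). Tm6sf2, which helps VLDL lipidation, had 0.49 ± 0.23 (adjusted p = 0.238), Dgat2, an enzyme of triglyceride synthesis, 0.00 ± 0.26 (adjusted p = 0.997) and Apobec1, which edits Apob mRNA, -0.06 ± 0.27 (adjusted p = 0.925) at AAV8-null 16 dpc against NP.

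Of the genes that act on the particle in plasma, Lipc and Lipg fell. Lipc, the hepatic lipase gene, was at 241, 159 and 189 CPM in NP and at 26.0, 13.2 and 9.61 CPM at AAV8-null 16 dpc (log2 fold change -3.59 ± 0.44, adjusted p = 0.000351). Under p21 its libraries gave 213, 189 and 279 CPM for 8 dpc, then 17.6, 16.5 and 6.48 CPM for 16 dpc. The 16 dpc libraries of both viruses were below all others. Lipg, the endothelial lipase gene, was called lower too (-4.78 ± 0.96, adjusted p = 0.00895), from 7.90 to 78.2 CPM in NP to 0.0890 to 4.42 CPM. These were 2 of the 12 genes of the list called at AAV8-null 16 dpc against NP, beside 2.82% of all genes called lower. Lcat, which esterifies cholesterol on HDL, had 0.59 ± 0.20 (adjusted p = 0.0971).

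Of 12 lipoprotein receptors and efflux transporters, 2 were lower and 1 was higher at AAV8-null 16 dpc against NP. Among all genes, 2.82% were called lower and 3.71% higher. Vldlr, the VLDL receptor gene, was at 23.9, 23.0 and 23.1 CPM in NP and at 2.14, 3.67 and 3.74 CPM at 16 dpc (-2.87 ± 0.29, adjusted p = 6.68e-05), and at 3.58, 3.42 and 4.73 CPM in AAV8-p21 16 dpc. Scarb1, the HDL receptor gene, was lower by a smaller step (-0.78 ± 0.20, adjusted p = 0.0298). Sdc1, the core protein of a heparan sulfate proteoglycan that binds remnants, was higher (1.42 ± 0.25, adjusted p = 0.00339). Lrp1, which encodes a receptor for remnant particles, had 0.32 ± 0.24 (adjusted p = 0.478).

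Of 14 other apolipoproteins 11 were tested. Apol9b was called lower at AAV8-null 16 dpc against NP (-2.60 ± 0.63, adjusted p = 0.0241), beside 2.82% of all genes. Apol9a and Apol9b are near copies of each other, so the split of reads between them is uncertain. Apom, an HDL protein, had 0.65 ± 0.28 (adjusted p = 0.201) and Apoh 0.01 ± 0.21 (adjusted p = 0.981). Of 18 regulators of apolipoprotein transcription none was called in that comparison, beside 6.52% of all genes. Hnf4a had 0.31 ± 0.21 (adjusted p = 0.428), Creb3l3, a regulator of Apoa4 and Apoc2, 0.68 ± 0.31 (adjusted p = 0.221) and Ppara -0.23 ± 0.67 (adjusted p = 0.891). Mlxipl, the gene of the carbohydrate-sensing factor ChREBP, was called lower at 16 dpc against 8 dpc in AAV8-null (-1.91, adjusted p = 0.0496) and in AAV8-p21 (-2.12, adjusted p = 0.0497). No gene of these 5 lists was called between AAV8-p21 and AAV8-null at either stage. Of all genes, 0.0739% were called at 16 dpc and 0.0246% at 8 dpc, so this is not a result about the lists.

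**Figure D5:**
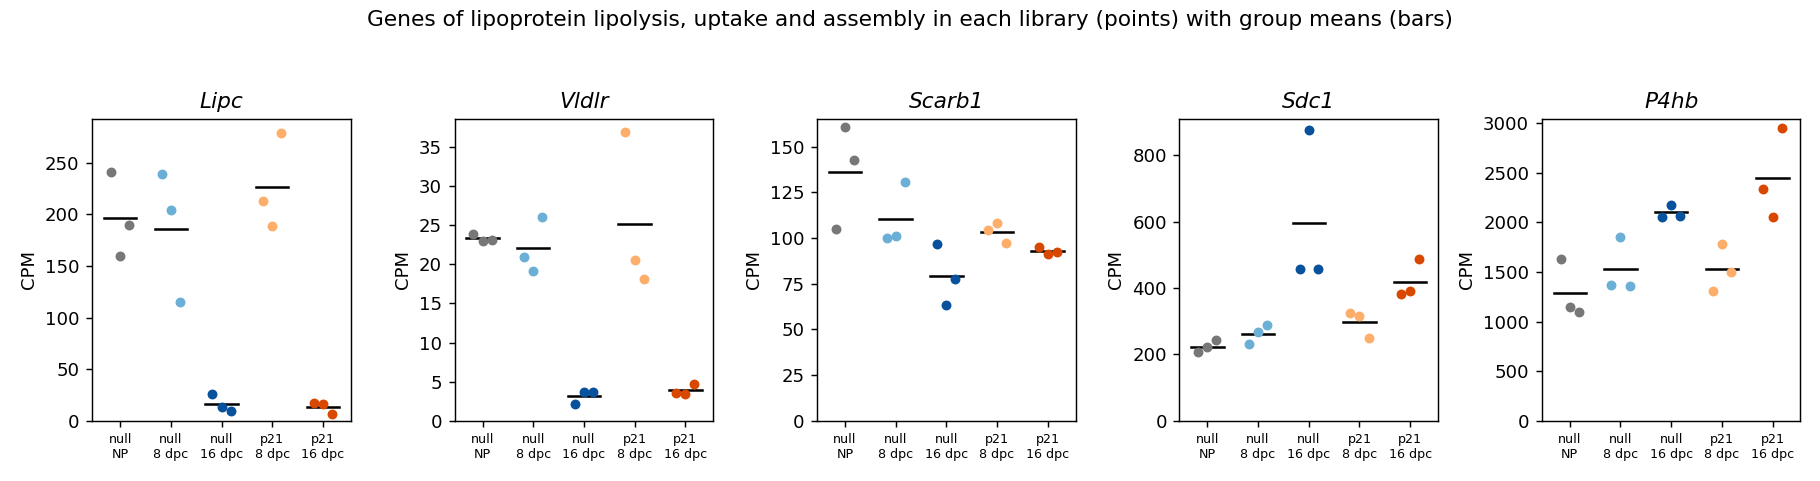
CPM of Lipc, Vldlr, Scarb1, Sdc1 and P4hb in each library (points) with group means (bars), on linear axes from 0. Lipc lies at 6.48 to 26.0 CPM and Vldlr at 2.14 to 4.73 CPM in the 6 libraries of 16 dpc, below every other library.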

How the data were processed

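Whole liver RNA from 15 libraries was measured by poly(A) RNA-seq. The authors trimmed reads with cutadapt 1.14, mapped them to mm10 with HISAT2 2.1.0 and deposited raw counts of uniquely mapped reads per protein-coding gene from HTSeq 0.12.4; tools and versions are those of the submitters' processing notes. The strand setting of the counting is not given in the sources used here, and Mttp and Pltp each share exon bases with an opposite-strand gene of the table. The counts went into 1 edgeR 4.0.16 quasi-likelihood model of the 5 groups (R 4.3.3, TMM, filterByExpr with a minimum count of 10, 12172 of 21702 genes, 10 residual degrees of freedom), with Benjamini-Hochberg adjustment over all genes tested and a call at an adjusted p under 0.05. Standard errors and 95% intervals came from that model. DESeq2 1.42.0, limma 3.58.1 (voom with sample weights), other scalings, filters and sample sets were alternatives. Exact permutation tests used log2(CPM + 0.5). The steps were tested on simulated data with 200 changed genes.

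Groups came from sample titles. In the AAV8-p21 16 dpc group the numbers of the table's columns differ from those of the titles, so its columns carry the group and no replicate number. The labels number samples and the study shows them as individual samples; where they did not come from separate mice, p-values measure only the spread between samples. The members and all lists were chosen with earlier results of these data known. Named were the 10 members, the called genes with the largest changes in each list, Cdkn1a and Alb, and the genes most like each member; Apoc1 and Apoc4 as neighbours, and the genes of the lists that were not called were chosen after their values were seen. Positions are those of GENCODE on GRCm38. With 3 libraries a group and 12280709 to 17615185 counts a library, the spread between libraries (biological coefficient of variation 0.28) and not counting error sets the precision of these genes.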

Additional observations from a re-analysis of the deposited data

How the results depend on the processing

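Apoa1 and Apoc2 were called higher in each of the 4 comparisons of a 16 dpc group with NP or 8 dpc, under every alternative other than leaving out 1 library, with log2 fold changes of 0.99 to 1.69 (Apoa1) and 1.65 to 2.36 (Apoc2) for AAV8-null 16 dpc against NP. How many further members passed depended on the test. At AAV8-null 16 dpc against NP, 2 members in edgeR (6.52% of all genes called) became 4 in DESeq2 over all libraries (9.95%), 4 in DESeq2 on the compared groups alone (8.43%), 5 in limma voom (13.2%) and 6 with the length slope as covariate (11.6%). Against 8 dpc, 2 (6.87%) became 5 (11.3%), 5 (9.33%), 7 (14%) and 7 (13%), and 4 (8.84%) without the 2 libraries of low length slope. At AAV8-p21 16 dpc against NP, 2 (3.81%) became 5 (19.0%) in limma voom; against AAV8-p21 8 dpc, 2 (3.32%) became 4 (6.69%) in DESeq2 over all libraries, 6 (14.9%) in limma voom, 4 (5.09%) without the 2 libraries of low slope and 5 (6.59%) with the covariate. At 8 dpc against NP, limma voom called 1 (Apoa1, lower; 15.2% of all genes) where edgeR called 0. The share of all genes called was thus higher too in each setting listed here. That list leaves out AAV8-null 16 dpc against NP without the 2 libraries of low slope. The covariate and the removal of both libraries were chosen after seeing the data, and the cause of these differences was not tested.

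The number called when 1 library was left out ran from 1 to 2 (AAV8-null 16 dpc against NP), 2 to 4 (against 8 dpc), 1 to 1 (AAV8-p21 16 dpc against NP) and 2 to 2 (against AAV8-p21 8 dpc), and was 0 to 0 for 8 dpc against NP, for AAV8-p21 against AAV8-null at either stage and for their interaction. The share of all genes called moved too where it is given above, without AAV8-null 8 dpc replicate 3. It is not given for the other fits, so these ranges are not a result about the members alone. The 1 value that turned with a call was Apoe at AAV8-null 16 dpc against NP, -0.64 with library totals. Of 1500 values of members that were not called, 116 changed sign under an alternative.

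Same-numbered libraries did not deviate together on average (mean r 0.0059, -0.58 to 0.47 over 18 pairs). Pairs of different number had a mean r of -0.0070 (-0.55 to 0.61 over 36 pairs). These values show no pairing by number, and with so wide a range they cannot exclude one. With a replicate block on the 12 numbered libraries 3 members were called at AAV8-null 16 dpc against NP (3 without it), 3 against 8 dpc (2 without it), and 0 in the other 2 comparisons. The shares of all genes called in these fits are not given here, so the step from 2 to 3 is not a result about the members. No paired analysis was possible for AAV8-p21 16 dpc because its columns carry no matching numbers.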
